A study of Mus musculus with 6 samples.

Results

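The 36 genes described here encode aminoacyl-tRNA synthetases, chosen by symbol from a deposited table of 16583 mouse genes. Of these, 20 were grouped as cytosolic or shared with mitochondria, with Gars, Kars and Qars listed as shared. The other 16, whose symbols end in 2, encode mitochondrial enzymes. The grouping is by symbol, and no value here shows where an enzyme acts, Qars included. All 36 passed the filter on low counts. They were measured by RNA sequencing in MC38, a mouse colorectal cancer cell line, in 3 libraries labelled KOSRC-1 (SRC-1 knocked out) and 3 labelled KOCtrl (knockout control). SRC-1, encoded by Ncoa1, is a coactivator that nuclear receptors and other transcription factors recruit, and the study asked how it raises the checkpoint ligand PD-L1. Interferon gamma (100 ng per mL, 24 hours) had been given to the cells of all 6 libraries, controls included, so no value shows unstimulated cells. The labels do not say whether the knockout was 1 clone or a pool, or how it was made.

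A synthetase joins an amino acid to its tRNA, and cells hold separate sets for cytosolic and mitochondrial translation. In the cytosol, several of the enzymes sit in a multisynthetase complex together with scaffold proteins, and others are free. The enzymes fall into 2 catalytic folds, class I and class II. Many cytosolic synthetase genes are targets of ATF4, the transcription factor of the integrated stress response, and Wars, which encodes the tryptophan enzyme, is in addition a known interferon gamma induced gene.

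The libraries held 16329459 to 17207625 expected counts. Ncoa1 stood at 16.7, 10.1 and 16.1 CPM (counts divided by a scaled library size) in KOSRC-1 replicates 1, 2 and 3, against 18.2, 18.5 and 18.04 CPM in KOCtrl, and was not called (edgeR log2 fold change -0.35 with SE 0.184, adjusted p = 0.179). The mRNA level therefore does not check the label, and a knockout below means a library so labelled. Knockout replicates 2 and 3 carry the genotype labels KOSRC-2 and KOSRC-3 but titles with KOSRC-1, which were followed. KOSRC-1 replicate 2 stood apart. Its correlation in log2 CPM was 0.978 with replicate 1 and 0.981 with replicate 3, against 0.996 between replicates 1 and 3 and 0.994 to 0.995 within KOCtrl. Counts of called genes are given with and without it. The labelled colorectal origin was not visible in its defining markers: all 10 epithelial and colon markers in the table stayed at or below 0.89 TPM (a level per transcript length, scaled to the same total in each library) in every library, with Epcam at 0 in 5 of them. The summed level of those markers was 0.72 to 0.97 TPM in KOSRC-1 and 0.95 to 1.36 TPM in KOCtrl, and no immune or endothelial marker passed 0.21 TPM. The 7 fibroblast and stromal markers summed to 2613 to 2719 TPM in KOSRC-1 and 2356 to 2534 TPM in KOCtrl, nearly all of it Vim and Dcn. Dcn stood at 101, 73.3 and 96.7 TPM in KOSRC-1, against 327, 306 and 329.6 TPM in KOCtrl, and the collagen gene Col6a3 at 1.66, 1.17 and 1.57 TPM in KOSRC-1, against 31.5, 31.1 and 31.8 TPM in KOCtrl. Pdgfrb was likewise lower in every knockout, Vim and Acta2 were higher in every knockout, and Col1a1 and Col1a2 stayed at or below 0.09 TPM with overlap. The part of these differences in the synthetase results was not tested.

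Most cytosolic synthetases were lower in the knockout, whereas the mitochondrial ones were divided. Of the 20 cytosolic or shared members, 14 fell, 0 rose and 6 were not called (edgeR quasi-likelihood test, adjusted p under 0.05 over all genes tested), beside 35.7% of all tested genes called, 18.5% lower and 17.1% higher. Their median log2 fold change was -0.52, beside 0.016 over all genes tested. Of the 16 mitochondrial members, 5 fell, 2 rose and 9 were not called, with a median of -0.05. Their share called was near the 35.7% of all tested genes. The difference between the classes was described and not tested. In CPM, 17 of the 20 cytosolic members had every knockout below every control and 1 had every knockout above, against 7 and 3 of the 16 mitochondrial members. Over all tested genes 51.3% had groups that did not overlap, 26.5% lower and 24.8% higher. Falls of at least 1.5-fold were called in 8 cytosolic members and in 0 mitochondrial members, against 9.78% of all tested genes. In bulk RNA, a lower value can mean less of an mRNA per cell or fewer cells holding it, and these cannot be told apart.

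**Figure D1:**
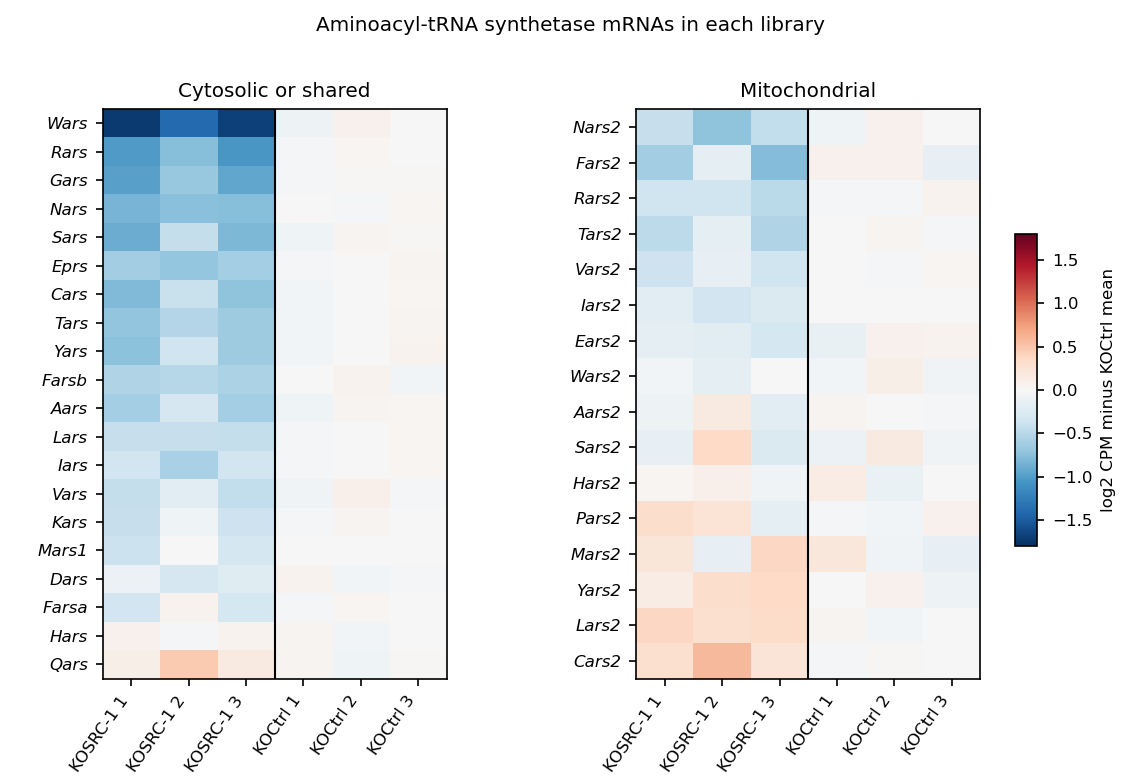
Heat map of the 36 synthetase mRNAs in each library, as log2 CPM minus the KOCtrl mean, with the 20 cytosolic or shared genes on the left and the 16 mitochondrial genes on the right, ordered by fold change. Blue fills the 3 KOSRC-1 columns for most cytosolic genes, darkest for Wars, whereas the mitochondrial columns mix blue and red, with log2 fold changes between -0.52 (Nars2) and 0.38 (Cars2).

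Without KOSRC-1 replicate 2, 18 of the 20 cytosolic members fell and 1, Qars, rose, with 69.6% of all tested genes called in that fit, 35.0% lower and 34.6% higher. Of the 16 mitochondrial members, 7 then fell and 3 rose, a share called not above the 69.6% of all tested genes. The cytosolic members lay a median of 0.27 (log2 CPM) higher in replicate 2 than in replicates 1 and 3, and 16 of the 20 lay above them. Sars was farthest above at 0.43, and Iars farthest below at -0.23. The direction depends on the measure. In TPM the summed cytosolic class was lowest in replicate 2, at 2769 TPM against 3059 and 3052 TPM in replicates 1 and 3. Over all 36 members the CPM offset of replicate 2 correlated with the GC content of their transcripts at r = 0.66 (n = 36 genes from the same libraries, against 0.46 over 11421 genes). The part of GC content in these results was not tested beyond the fit with the library trends in length and GC removed, in which 14 cytosolic members fell and 1 rose. In that fit 46.9% of all tested genes were called, 21.2% lower and 25.7% higher.

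Summed over the class, the cytosolic or shared synthetases made up 3059, 2769 and 3052 TPM in KOSRC-1 replicates 1, 2 and 3, against 4268, 4309 and 4472 TPM in the KOCtrl replicates. The knockout mean was 68.0% of the control mean, and 69.4% with Wars left out. The mitochondrial class summed to 259, 219 and 243 TPM in KOSRC-1 and 258, 254 and 261 TPM in KOCtrl. The ratio of the cytosolic to the mitochondrial sum was 11.8, 12.66 and 12.56 in KOSRC-1, against 16.52, 16.94 and 17.16 in KOCtrl. Every knockout library thus lay below every control in the cytosolic sum and in the ratio, whereas the mitochondrial sums overlapped.

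Wars showed the largest change of the 36. It encodes the cytosolic tryptophanyl-tRNA synthetase, a class I enzyme outside the multisynthetase complex (gene 22375, GRCm38.p6 chromosome 12, 108860030 to 108894175). Its level was 99.96, 125 and 103 CPM in KOSRC-1, against 310, 349 and 332 CPM in KOCtrl. The highest knockout library lay far below the lowest control. Wars fell 3.02-fold (log2 fold change -1.59, SE 0.107, edgeR adjusted p = 0.000104), and 2.25% of all tested genes had a change as low or lower. Per transcript length it averaged 60.1 ± 1.67 TPM in KOSRC-1 and 174 ± 8.14 TPM in KOCtrl (SD, n = 3 each). In the order of the 20 cytosolic members by TPM, Wars was the 19th in KOSRC-1 and the 10th in KOCtrl. In KOCtrl its libraries overlapped those of its neighbours in that order, Eprs and Cars, and in KOSRC-1 they overlapped neither Farsa above nor Dars below.

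Wars fell relative to every other cytosolic member. The TPM ratio of Wars to each of the 19 others was lower in all 3 knockouts than in any control. Even against Rars, the next largest fall, it was 0.283, 0.293 and 0.294 in KOSRC-1, against 0.437, 0.467 and 0.455 in KOCtrl, a log2 difference of -0.64 (a description, since Wars and Rars were set side by side for their falls). Wars2, the mitochondrial tryptophan enzyme, stood at 16.4, 15.1 and 16.9 CPM in KOSRC-1 and 16.4, 18.2 and 16.1 CPM in KOCtrl, with overlapping groups and no called difference (log2 fold change -0.07, SE 0.0964, edgeR adjusted p = 0.609). The Wars to Wars2 TPM ratio was 10.8, 13.8 and 10.2 in KOSRC-1, against 32.3, 33.0 and 34.4 in KOCtrl. That is a log2 difference of -1.53, with no overlap (exact permutation test, two-sided, p = 0.1, the smallest that 3 against 3 can give).

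**Figure D2:**
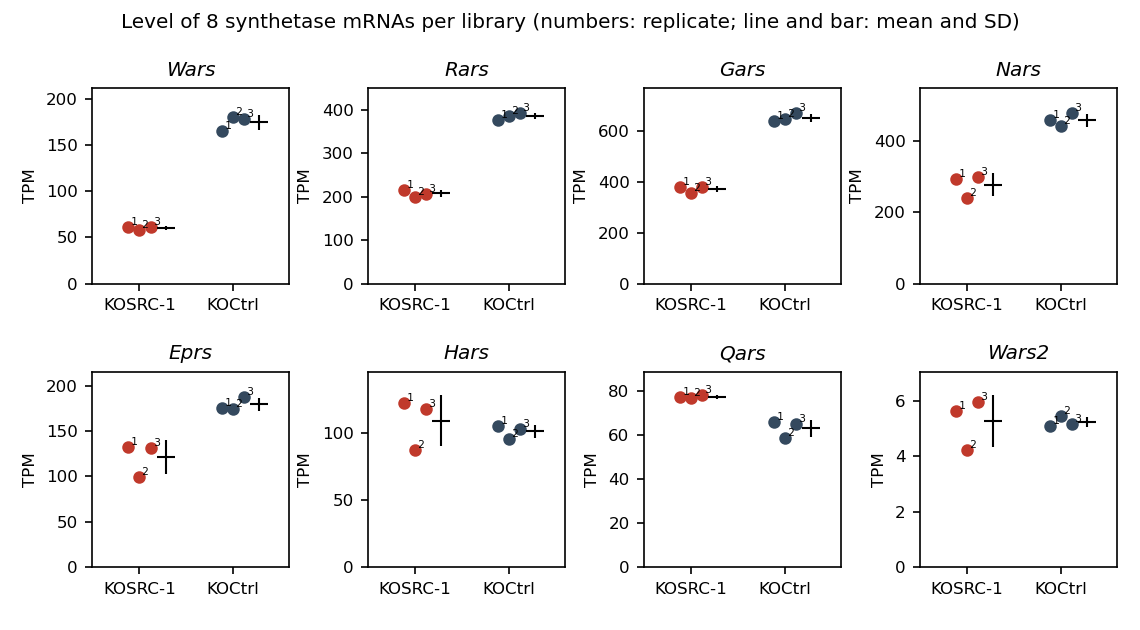
TPM of 8 synthetase mRNAs in each KOSRC-1 (red) and KOCtrl (dark) library, with the replicate number at each point and the mean and SD as a line and bar (n = 3). Wars, Rars, Gars, Nars and Eprs are lower in every knockout, Qars is higher in every knockout, and Hars and Wars2 overlap.

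Of the 8 multisynthetase complex members, 4 were called lower and 0 higher, beside 18.5% of all tested genes lower and 17.1% higher, with a median log2 fold change of -0.35. Of the 8, 7 were called lower and 1 higher without KOSRC-1 replicate 2, beside 35.0% and 34.6% of all tested genes, with a median of -0.37. Rars, the arginine enzyme of the complex, stood at 264, 315 and 260 CPM (259.6 in replicate 3) in KOSRC-1, against 523, 551 and 539 CPM in KOCtrl. It fell 1.92-fold (log2 fold change -0.94, SE 0.0945, edgeR adjusted p = 0.000516). Replicate 2 was the highest knockout in CPM, though the lowest in TPM, and was below every control in both. Eprs makes the fused enzyme for glutamate and proline, which in human myeloid cells given interferon gamma also leaves the complex to restrain translation of selected mRNAs. Eprs stood at 402, 382 and 406 CPM in KOSRC-1, against 603 (602.5), 615 and 639 CPM in KOCtrl, and fell 1.56-fold (SE 0.0715 on the log2 scale, edgeR adjusted p = 0.000716). In CPM its knockout libraries lay close together, far below the controls. In TPM replicate 2 was lower, at 99.19 against 132.3 and 130.8 in replicates 1 and 3.

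Lars, the leucine enzyme, stood at 300.3, 300.5 and 298 CPM in KOSRC-1, against 395, 398 and 409.9 CPM in KOCtrl. The knockout libraries were nearly equal in CPM, and Lars fell 1.34-fold (log2 SE 0.0645, edgeR adjusted p = 0.00255). In TPM replicate 2 was lower, at 97.07 against 125.8 and 121.9 in replicates 1 and 3. Iars, the isoleucine enzyme, stood at 298, 253 and 297 CPM in KOSRC-1, against 369, 376 and 388 CPM in KOCtrl. It fell by 0.42 on the log2 scale (SE 0.0861, edgeR adjusted p = 0.00879), and here replicate 2 was the lowest library. In limma on TPM the Iars call was lost with either pseudocount (adjusted p = 0.142 and 0.143). The other 4 complex members were not called with all 6 libraries. Kars (lysine) was at -0.28, Mars1 (methionine) at -0.23, Dars (aspartate) at -0.20 and Qars (glutamine) at 0.25 on the log2 scale, with edgeR adjusted p from 0.0763 to 0.135. Without KOSRC-1 replicate 2 all 4 were called, Kars at -0.39 (edgeR adjusted p = 1.8e-08), Mars1 at -0.35 (2.42e-07), Dars at -0.16 (0.0204) and Qars at 0.13 (0.0263). Kars, Mars1 and Qars were also called in limma on TPM. In CPM none of these 4 overlapped between the groups, Qars being the 1 member of the class with every knockout above every control, though Dars overlapped in TPM. Mars1 shares 68 exon bases with Ddit3, a stress gene on the opposite strand that was lower in the knockout (log2 fold change -1.75), and the kit is not stated to mark strand, so reads there cannot be assigned.

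Outside the complex, 10 of 12 cytosolic members fell and 0 rose, beside 18.5% and 17.1% of all tested genes, with a median of -0.59. Leaving out KOSRC-1 replicate 2, 11 of the 12 fell, beside 35.0% of all tested genes lower in that fit. Gars, the glycine enzyme, which 1 gene supplies to both cytosol and mitochondria, was the most abundant synthetase mRNA in both groups, at 379.3, 357 and 379 (378.8) TPM in KOSRC-1, against 640.5, 647 and 671 TPM in KOCtrl. In CPM it stood at 528, 645 and 541 (540.5) in KOSRC-1, against 1011, 1053 and 1051 in KOCtrl. It fell 1.82-fold (log2 fold change -0.86, SE 0.0984, edgeR adjusted p = 0.000813). Nars, the asparagine enzyme and the next most abundant by mean TPM, stood at 459.7, 487 and 481 CPM in KOSRC-1, against 812, 807 and 840.4 CPM in KOCtrl. It fell 1.72-fold (log2 SE 0.0717, edgeR adjusted p = 0.000338), the smallest adjusted p after Wars, with little spread within either group in CPM. In TPM KOSRC-1 replicate 2 was lower, at 240.4 against 294.4 and 300.4 in replicates 1 and 3.

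Sars, the serine enzyme, stood at 443, 614 and 469.8 CPM in KOSRC-1, against 785, 853 and 839 CPM in KOCtrl, a fall of 1.62-fold (log2 SE 0.132, edgeR adjusted p = 0.00652). Its replicate 2 value was well above the other knockouts and still under the controls. Tars (threonine) stood at 297, 338 and 311 CPM in KOSRC-1, against 469.8, 485 and 499 CPM in KOCtrl, a fall of 1.54-fold (log2 SE 0.0779, edgeR adjusted p = 0.00115). Cars (cysteine) stood at 169, 223 and 178 CPM in KOSRC-1, against 286, 296 and 303 CPM in KOCtrl, a fall of 1.55-fold (log2 SE 0.111, edgeR adjusted p = 0.0049). The 2 groups were clear of each other for both genes.

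Yars, the tyrosine enzyme, stood at 173, 225 and 185 CPM in KOSRC-1, against 278, 286 and 299.7 CPM in KOCtrl, a fall of 1.48-fold (log2 SE 0.108, edgeR adjusted p = 0.00671). Aars, the alanine enzyme, stood at 525 (524.7), 649.6 and 525 CPM in KOSRC-1, against 755, 826 and 817 CPM in KOCtrl, a fall of 1.41-fold (log2 SE 0.107, edgeR adjusted p = 0.011). The Aars call was lost without KOCtrl replicate 2 or 3 (edgeR adjusted p = 0.0543 and 0.0538), with every knockout still below every control. Exons of Aars share 1326 bases with Exosc6 on the same strand, so reads there cannot be assigned. Vars, the valine enzyme, had the weakest call of the class (log2 fold change -0.36, edgeR adjusted p = 0.0233), and 5 of the 6 fits that left out 1 library lost it, all but the one without KOSRC-1 replicate 2.

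The phenylalanine enzyme is built of 2 subunits from 2 genes, of which 1 was called; the difference between them was not tested. Farsb, the beta subunit gene, stood at 127, 130.2 and 126 CPM in KOSRC-1, against 185, 194 and 179.9 CPM in KOCtrl, and fell 1.46-fold (log2 SE 0.0675, edgeR adjusted p = 0.00112). Farsa, the alpha subunit gene, stood at 66.96, 88.67 and 68.41 CPM in KOSRC-1 and 83.5, 87.09 and 84.73 CPM in KOCtrl, and was not called (log2 fold change -0.19, edgeR adjusted p = 0.25). In CPM replicate 2 alone was above the controls for Farsa, whereas in TPM every knockout was below them, and without it Farsa fell by 0.33 on the log2 scale (edgeR adjusted p = 3.58e-06). Hars, the histidine enzyme, stood at 138, 128 and 137 (136.5) CPM in KOSRC-1 and 135, 126 and 131 CPM in KOCtrl, overlapped, and was not called (log2 fold change 0.04, edgeR adjusted p = 0.685). By catalytic fold, 7 of 9 class I and 6 of 10 class II cytosolic members fell, Eprs holding both folds, and 0 of either fold rose, beside 18.5% of all tested genes lower and 17.1% higher. The falls were 8 of 9 and 9 of 10 without KOSRC-1 replicate 2, with 1 rise (Qars) in class I. In that fit 35.0% of all tested genes were lower and 34.6% higher.

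**Figure D3:**
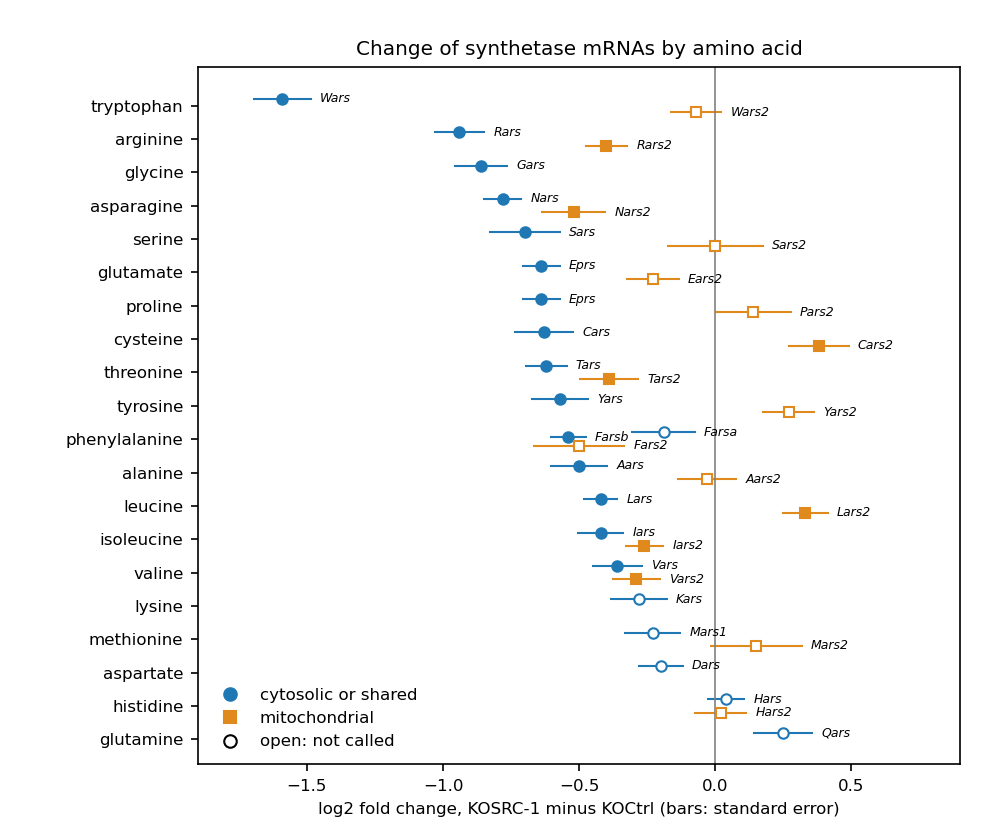
Log2 fold change, KOSRC-1 minus KOCtrl, with its standard error for each member, by amino acid, cytosolic or shared members as blue circles and mitochondrial members as orange squares (open where not called). Eprs is drawn for both of its amino acids. Wars at -1.59 lies apart at the left, most cytosolic members lie between -0.94 and -0.36, and the mitochondrial squares lie on both sides of 0.

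Letters of the amino acid response core, TGATGNAA, to which ATF4 dimers are known to bind, were looked for on both strands from 250 bases before to 50 bases after the RefSeq gene start (GRCm38.p6). Sequences were held for 27 of the 36 members, 13 cytosolic and 14 mitochondrial, and not for Cars, Hars, Lars, Nars, Rars, Vars, Wars, Hars2 or Pars2. The core was found in 5 of the 13 cytosolic members (Aars, Gars, Iars, Tars and Yars) and in 0 of the 14 mitochondrial members, against 3.97% of all 32851 windows. All 5 cytosolic genes had fallen, as had Eprs, Farsb and Sars, whose windows held no match. The match nearest the start of each of the 5 genes is shown because such matches were found in 1 class only. Each line is 30 bases of the gene's own strand, read 5′ to 3′, with the core in capitals, and the letters TTGCATCA or TTTCATCA are the core read on the other strand.
Aars, chr8:111033840-111033869, plus strand: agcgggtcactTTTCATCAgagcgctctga
Gars, chr6:55037960-55037989, plus strand: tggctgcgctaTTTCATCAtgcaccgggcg
Iars, chr13:49682126-49682155, plus strand: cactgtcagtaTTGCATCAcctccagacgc
Tars, chr15:11399655-11399684, minus strand: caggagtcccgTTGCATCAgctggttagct
Yars, chr4:129189895-129189924, plus strand: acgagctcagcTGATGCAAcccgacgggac

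Counted from the gene start, the first base of each core shown lay at 10 in Aars, -30 in Gars, 8 in Iars, -15 in Tars and 4 in Yars. The start is that of the RefSeq promoter entry. For Aars it lies inside the RefSeq range of the gene, 111027778 to 111055569 on chromosome 8. The same holds for Yars, whose range is 129189734 to 129219240 on chromosome 4. Of 23 ATF4 target genes other than synthetases with a sequence, 8 held TGATGNAA. The E-box CACGTG, which MYC dimers bind, was in 4 cytosolic members (Aars, Farsb, Iars and Tars), in 1 mitochondrial member (Ears2) and in 7.15% of all windows. Myc itself fell 2.69-fold, with 232, 237 and 231 CPM in KOSRC-1 against 586 (585.5), 655 and 644 CPM in KOCtrl (edgeR adjusted p = 4.42e-05). The interferon letters were searched in the same windows, and so not for Wars, which had no sequence. The gamma activated site TTCNNNGAA was in Aars, Kars and Nars2, which is 15.4% of cytosolic and 6.67% of mitochondrial windows, against 8.3% of all windows. The interferon stimulated response element core (GAAA, any 2 bases, GAAA) was in Qars alone, 7.69% of cytosolic windows, against 3.44% of all. A match is a description of letters and not a bound site.

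The called mitochondrial members lay on both sides, between -0.52 and 0.38 on the log2 scale. Rars2, the arginine enzyme, stood at 35.99, 35.95 and 33.2 CPM in KOSRC-1, against 45.5, 45.1 and 48.4 CPM in KOCtrl, and fell 1.32-fold (log2 fold change -0.40, SE 0.08, edgeR adjusted p = 0.00751). It was the 1 mitochondrial call kept in all 6 fits that left out 1 library, but limma on TPM lost it with either pseudocount (adjusted p = 0.0643 and 0.0649). Nars2, the asparagine enzyme, stood at 9.51, 7.63 and 9.31 CPM in KOSRC-1, against 11.95, 13.4 and 12.7 CPM in KOCtrl, and fell 1.44-fold (log2 SE 0.119, edgeR adjusted p = 0.0134). The Nars2 call was lost without KOCtrl replicate 2 or 3 (edgeR adjusted p = 0.064 and 0.0566).

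Tars2, the threonine enzyme, stood at 47.8, 58.8 and 45.5 (45.45) CPM in KOSRC-1, against 65.96, 68.4 and 64.7 CPM in KOCtrl, a fall of 1.31-fold (log2 SE 0.11, edgeR adjusted p = 0.0306). Iars2, the most abundant mitochondrial member at 44.1 ± 8.24 TPM in KOSRC-1 and 50.7 ± 1.09 TPM in KOCtrl (n = 3 each), fell by 0.26 on the log2 scale (SE 0.0724, edgeR adjusted p = 0.0264). In CPM Iars2 stood at 112, 99.75 and 106 in KOSRC-1, against 126.6, 126.7 and 128 in KOCtrl, and 2034 of its exon bases overlap Rab3gap2 on the opposite strand. Vars2 (valine) stood at 29.8, 34.7 and 30.1 CPM in KOSRC-1, against 38.6, 37.6 and 39.5 CPM in KOCtrl, and fell by 0.29 (SE 0.0911, edgeR adjusted p = 0.0429). The Vars2 call was lost in limma on TPM, with upper-quartile scaling and with no filter on low counts (adjusted p from 0.0534 to 0.155). In CPM all 3 genes were clear of overlap, but in TPM the Iars2 groups overlapped.

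The 2 that rose were Cars2 and Lars2. Cars2, the cysteine enzyme, stood at 19.3 (19.25), 23.6 and 18.5 CPM in KOSRC-1, against 15.6, 16.03 and 15.7 CPM in KOCtrl (log2 fold change 0.38, SE 0.114, edgeR adjusted p = 0.0387). The Cars2 call was lost with upper-quartile scaling (edgeR adjusted p = 0.0526). Cars2 shares 422 exon bases with Naxd on the opposite strand, and the kit is not stated to mark strand, so reads there cannot be assigned. Lars2, the leucine enzyme, stood at 17.9, 16.8 and 17.3 CPM in KOSRC-1, against 14.2, 13.4 and 13.8 CPM in KOCtrl (log2 fold change 0.33, SE 0.0859, edgeR adjusted p = 0.0222). Each was above every control in every knockout, beside 24.8% of all tested genes. Except for those of Rars2 and Nars2, the mitochondrial calls were lost in 4 or 5 of the 6 fits that left out 1 library: in 4 for Cars2 and Iars2, and in 5 for Lars2, Tars2 and Vars2. For Lars2, Tars2 and Vars2 only the fit without KOSRC-1 replicate 2 kept the call; the Cars2 call was also kept without KOSRC-1 replicate 3, and the Iars2 call without KOSRC-1 replicate 1.

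Of the 9 mitochondrial members not called, Fars2 (phenylalanine) had the lowest value, at 9.03, 12.4 and 8.14 CPM in KOSRC-1 against 14.68, 14.67 and 12.5 CPM in KOCtrl (log2 fold change -0.50, edgeR adjusted p = 0.056). Without KOSRC-1 replicate 2 it fell by 0.70 (edgeR adjusted p = 2.53e-06), and it was called lower in DESeq2, in limma on TPM and in the fit free of length and GC trends (adjusted p from 0.0296 to 0.039). Yars2 (tyrosine) had the highest, at 22.8, 25.8 and 26.5 CPM in KOSRC-1 against 20.9, 21.95 and 19.4 CPM in KOCtrl (log2 fold change 0.27, edgeR adjusted p = 0.0678). Without KOSRC-1 replicate 2 Yars2 rose by 0.25 (edgeR adjusted p = 0.0102), and by 0.36 in the fit free of length and GC trends (edgeR adjusted p = 0.0111). Neither gene overlapped between the groups. Ears2 was at -0.23, without overlap in CPM, and was called lower without KOSRC-1 replicate 2 (edgeR adjusted p = 0.0252), and Aars2, Hars2, Mars2, Pars2, Sars2 and Wars2 lay between -0.07 and 0.15 and overlapped. Mars2 was the lowest of the 36 by level, at 3.62 ± 1.06 TPM in KOSRC-1 and 3.07 ± 0.411 TPM in KOCtrl (n = 3 each).

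Most amino acids have a cytosolic and a mitochondrial enzyme, and the TPM ratio of the 2 mRNAs in 1 library does not depend on how libraries are scaled. Over 17 such pairs, with Eprs set against both Ears2 and Pars2 and both phenylalanine subunits against Fars2, 12 had every knockout below every control, 1 above and 4 overlapped. After the tryptophan pair, the cysteine pair moved most, with a Cars to Cars2 ratio of 5.78, 6.42 and 6.37 in KOSRC-1 against 12.5, 12.4 and 12.7 in KOCtrl, since Cars fell and Cars2 rose. The Yars to Yars2 ratio was 4.72, 5.42 and 4.33 in KOSRC-1 against 8.28, 8.10 and 9.60 in KOCtrl, and the Lars to Lars2 ratio was 16.7, 17.9 and 17.2 against 27.9, 29.8 and 29.8 in KOCtrl. These 3 pairs were separate in every library. In the asparagine pair both genes fell, and the ratio was 48.2, 48.8 and 49.9 in KOSRC-1, all just below the lowest KOCtrl library, with a log2 difference of -0.18. The histidine, valine and methionine pairs overlapped, as did Farsb to Fars2, while Farsa to Fars2 was higher in every knockout (7.73, 7.42 and 8.47 against 5.93, 6.19 and 7.06 in KOCtrl). Apart from the Wars pair these ratios are descriptions without a test.

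**Figure D4:**
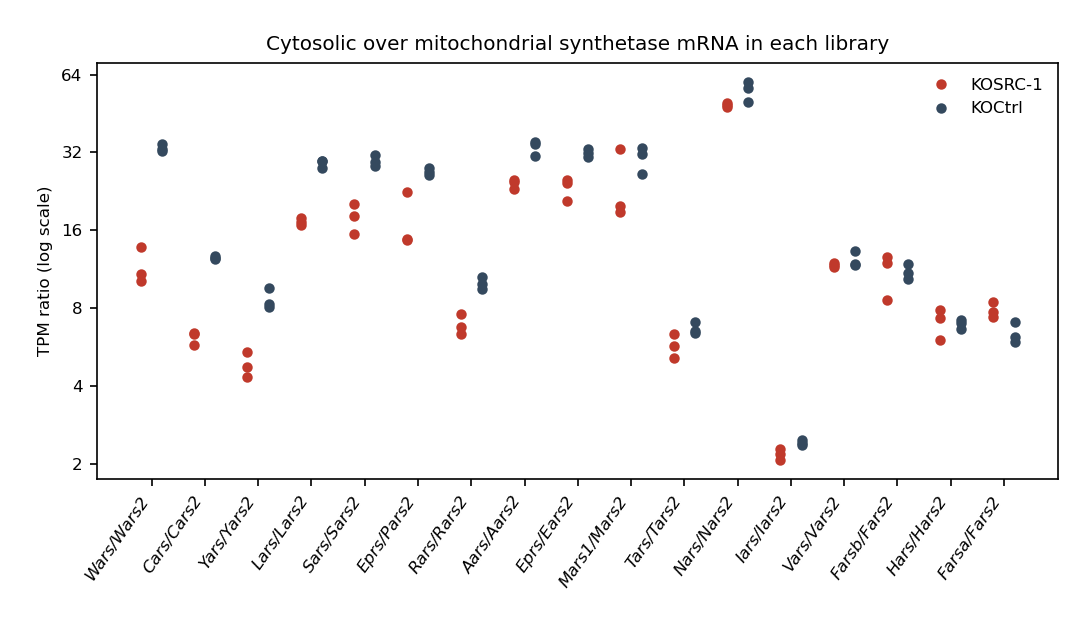
TPM ratio of cytosolic to mitochondrial synthetase mRNA in each KOSRC-1 (red) and KOCtrl (dark) library on a log axis, for 17 pairs ordered by their difference. The knockouts lie below the controls in 12 pairs, by the most for Wars to Wars2, and above them in Farsa to Fars2.

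The partners of the synthetases were also lower where they were called. Of 22 scaffold, editing, amidation, hydrolysis and tRNA modification genes, 10 fell, 0 rose and 12 were not called, beside 18.5% of all tested genes lower and 17.1% higher, with a median of -0.41. Leaving out KOSRC-1 replicate 2, 17 fell and 1 rose, beside 35.0% of all tested genes lower and 34.6% higher in that fit. Dtd2, which removes amino acids wrongly joined to tRNA, stood at 13.3, 16.2 and 14.8 CPM in KOSRC-1 against 29.1, 28.1 and 27.95 CPM in KOCtrl (log2 fold change -0.94, edgeR adjusted p = 0.000561). Eef1e1, a scaffold protein of the multisynthetase complex, stood at 35.1, 34.0 and 38.8 CPM in KOSRC-1 against 59.4, 59.1 (59.05) and 61.4 (61.35) CPM in KOCtrl (log2 fold change -0.74, edgeR adjusted p = 0.000732). Gatc, a subunit of the mitochondrial amidotransferase that completes glutaminyl-tRNA, stood at 26.3, 31.2 and 26.4 CPM in KOSRC-1 against 44.5, 50.1 and 49.7 CPM in KOCtrl (log2 fold change -0.78, edgeR adjusted p = 0.0014). The other scaffold genes, Aimp1 (-0.44) and Aimp2 (-0.24), were not called (edgeR adjusted p = 0.059 and 0.134).

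Most ATF4 target genes other than synthetases fell. Of 26, 23 fell, 1 rose (Ddit4) and 2 were not called (Phgdh and Atf5), beside 18.5% of all tested genes lower and 17.1% higher, with a median of -1.02. Leaving out KOSRC-1 replicate 2, 24 fell and 1 rose, beside 35.0% of all tested genes lower and 34.6% higher in that fit. The list includes Atf4 itself, counted among the genes that fell. Atf4 mRNA stood at 701, 917 and 750.2 CPM in KOSRC-1 against 1039, 1020.0 and 1006 CPM in KOCtrl (log2 fold change -0.37, edgeR adjusted p = 0.0379). The transcription factor gene Atf3, the lipoprotein receptor gene Vldlr and Cth, an enzyme of cysteine synthesis, had the smallest adjusted p of the list, with log2 fold changes of -2.46, -1.83 and -1.53. Atf3 stood at 8.07, 7.93 and 7.32 CPM in KOSRC-1, against 39.5 (39.45), 47.6 and 41.7 CPM in KOCtrl (edgeR adjusted p = 2.43e-05). Of 24 interferon gamma induced genes other than Wars, 6 fell, 2 rose (Socs1 and Ifi47) and 16 were not called, a share called near the 35.7% of all tested genes, with a median of 0.03. Without KOSRC-1 replicate 2, 10 fell and 10 rose, beside 69.6% of all tested genes called. Cd274, encoding PD-L1, had the lowest value at -1.27, the adhesion gene Icam1 was at -1.02, and the chemokine gene Cxcl10 and the transcription factor gene Irf1 were both at -0.79. Irf1 stood at 610.4, 726 and 634 CPM in KOSRC-1, against 1105, 1172.5 and 1118 CPM in KOCtrl (SE 0.0923, edgeR adjusted p = 0.000882), well clear of each other. The fall of Wars, at -1.59, was thus below every member of the interferon list and below every other synthetase, and within the range of the ATF4 list, from -2.50 (Chac1) to 0.38. Which of these programmes the fall of Wars goes with was not tested.

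**Figure D5:**
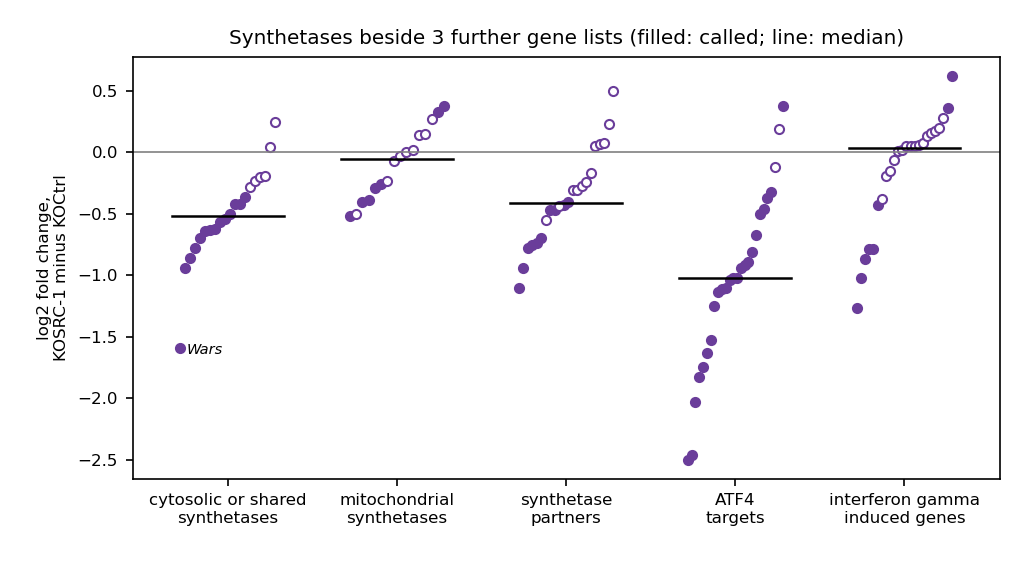
Log2 fold changes, KOSRC-1 minus KOCtrl, of the 20 cytosolic or shared and 16 mitochondrial synthetases beside 22 synthetase partners, 26 ATF4 targets and 24 interferon gamma induced genes. Filled points are called, open points are not, and lines are medians, at -0.52, -0.05, -0.41, -1.02 and 0.03 from left to right.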

How the data were processed

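The members, lists and motifs were chosen with earlier results of these data known. Per the file headers, the deposited table holds read counts, FPKM and TPM for each library. The deposited read counts are expected counts (88.9% whole numbers) made by the authors. The deposited TPM and FPKM were also made by the authors. HISAT2, StringTie, SAMtools and the build GRCm38.p6 are listed in the submitters' processing notes, with no counting program among what was used here. Expected counts were rounded. Genes were kept by filterByExpr (minimum count 10, minimum total 15), which left 11656. The test was edgeR 4.0.16 (robust quasi-likelihood, TMM, two-sided, R 4.3.3) with Benjamini-Hochberg adjustment over all genes tested, called at 0.05. It was also run on simulated counts. These held no outlying library and no length or GC trend, so that run does not check the test under such conditions. TPM was used for levels between genes and for ratios, FPKM in 1 alternative. Replicates are not said to be separate cultures, so p-values measure how these 6 libraries vary, which may be technical. Totals were 16329459 to 17207625 expected counts. Alternatives were RLE and upper-quartile scaling, other filters, DESeq2 1.42.0, limma 3.58.1 on log2(TPM + 1) and log2(TPM + 0.1), removal of length and GC trends, a replicate block and leaving out each library. Values in each library are given for Wars, Wars2 and the other called members with the smallest adjusted p (at most 12 cytosolic or shared and 8 mitochondrial), and up to 3 called genes of each list are named by the same rule. The values of Farsa, Hars, Kars, Mars1, Dars, Qars, Fars2, Yars2, Ears2 and Mars2, and pairs other than Wars to Wars2, were chosen after their values were seen. Coordinates and promoter sequences are from RefSeq. Some promoter matches are not reported here.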

Additional observations from a re-analysis of the deposited data

How the results depend on the processing

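Wars kept its direction and its call under all 16 alternatives, with log2 fold changes from -1.70 to -1.52 (adjusted p from 1.97e-37 to 0.0016). The log2 difference of its ratio to Wars2 ran from -1.66 to -1.44 when 1 library was left out (exact p = 0.2, the smallest that 2 against 3 can give) and was -1.53 with CPM or FPKM. Leaving out 1 library moved the count of all genes called to between 2406 and 8208, the cytosolic calls to 12 to 18 lower and 0 to 1 higher, the mitochondrial calls to 1 to 7 lower and 0 to 3 higher, the cytosolic median to between -0.58 and -0.47 and the mitochondrial median to between -0.17 and -0.03. The count of 8208 came without KOSRC-1 replicate 2, and 2576, 2406 and 2409 came without KOCtrl replicates 1, 2 and 3. In limma on TPM, with either pseudocount, the cytosolic median was -0.47 with 1 member (Qars) higher, and 3 mitochondrial members were lower and 1 higher. The calls of Iars, Rars2, Iars2, Lars2 and Vars2 were lost there. With upper-quartile scaling 1 mitochondrial member was higher. With the length and GC trends removed, with or without the replicate block, the cytosolic median was -0.44 with 1 member (Qars) higher. The cause of these shifts was not tested.

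Deviations of same-numbered libraries from their group means correlated at r = 0.161, 0.261 and 0.04 for numbers 1, 2 and 3. The labels do not say whether the numbers pair the samples, and with 3 libraries per group these values cannot settle it. With the replicate block, 15 cytosolic members fell and 0 rose, 5 mitochondrial members fell and 2 rose (Vars2 lost its call at adjusted p = 0.0636 and Fars2 gained one at 0.0225), Kars gained a call at 0.048, and 4337 of all genes were called, against 4157 without it.

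Signs turned only in members that were not called: Sars2 at -0.0013 (upper quartile), -0.0024 (mean of at least 10 CPM), -0.0037 (length and GC trends removed), -0.01 (replicate block, with or without those trends) and from -0.21 to 0.12 with 1 library left out; Mars2 at -0.08 and Wars2 at 0.00065 with the trends removed, and -0.08 and 0.0013 with the block added; Hars2 from -0.04 to 0.08 and Aars2 from -0.14 to 0.04 with 1 library left out. Mars2 had the lowest level of the members, 3.62 TPM in KOSRC-1 and 3.07 TPM in KOCtrl.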
